A study of Rattus norvegicus with 18 samples.

Results

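The nuclear-encoded subunits of the mitochondrial respiratory chain and of ATP synthase were read by 102 probe sets for 56 genes, out of 8740 probe sets and 4736 named genes on the array. They were chosen by name alone: each probe set whose single gene symbol begins with Nduf, Sdh, Uqcr, Atp5 or Cox4 to Cox8, together with Cyc1 and Cycs. Complex I (Nduf) had 49 probe sets for 27 genes, complex II (Sdh) 2 for 2 genes, complex III (Uqcr and Cyc1) 7 for 4 genes, complex IV (Cox) 27 for 13 genes and ATP synthase (Atp5) 17 for 10 genes. Cycs, the gene of cytochrome c, had 0 probe sets under that single symbol. A shared prefix is not always a shared role. Ndufaf3 and Sdhaf2 are assembly factors, Atp5if1 is the inhibitor of ATP synthase, Ndufa4 is counted today as a subunit of complex IV in spite of its name, Ndufa4l2 is a paralog of Ndufa4, and Cox6c-ps1 is a pseudogene. All were kept with the complex that their prefix gives.

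The tissue was the suprachiasmatic nucleus (SCN), the hypothalamic seat of the main circadian clock in mammals, of adult male rats of the Long-Evans strain. They were kept in alternating light and dark, were released into constant darkness at their accustomed lights-off, and were sampled every 6 h by the labels. The labels give hours only, and 0 h was taken as the next projected lights-on, which is circadian time (CT) 0. No genotype or drug was compared, and all groups were in constant darkness. The groups were the time points 0, 6, 12, 18, 24, 30, 36 and 42 h, so that CT 0, CT 6, CT 12 and CT 18 each occurred on a first and on a second day. The RNA of the 5 rats of a time point was pooled, which leaves 1 pool per time point, 2 pools per phase and 4 pools per day. Each pool was read on a rat Affymetrix GeneChip, a 1-colour oligonucleotide array, in a first run and again in a technical repeat. The first run had 10 arrays, because the 24 h and 36 h pools had a pair of arrays each (a and b, taken as readings of the same pool), and the technical repeat had 8.

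The respiratory chain passes electrons from NADH (through complex I) and succinate (through complex II) to ubiquinone, on to cytochrome c through complex III and to oxygen through complex IV, while complexes I, III and IV pump protons out of the mitochondrial matrix. ATP synthase lets the protons back through its membrane part and makes ATP in its F1 head. In nervous tissue this pathway pays for most of the ion pumping that follows electrical activity, and SCN neurons fire faster in the subjective day than in the subjective night. The complexes also hold subunits encoded in mitochondrial DNA, and 0 of the 13 genes of that kind were named on the array, so the values here concern the nuclear part alone.

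Intensities were kept as deposited and compared on the log2 scale. The median intensity of an array was 136.5 to 152.3 in the first run against 107.9 to 127.6 in the repeat. Control probe sets took 1.11% to 1.68% of the signal on 3 first-run arrays: 12 h, 18 h and array b at 36 h. On the other 15 they took 0.50% to 0.98%. Complex medians that moved by more than their replicate spread without the 3 arrays with much control signal are marked. For single probe sets the values without these arrays are given for some only. Of 10 listed SCN peptide genes, 5 of the 6 on the array passed the level filter, among them Avp with a geometric mean of 1732, whereas the probe set of Vip lay near the floor at 49.0. Of the 10 pan-neuronal markers on the array, 9 passed. In bulk tissue, fewer cells of a type and less RNA per cell cannot be told apart. Tests were run on probe sets whose 8-pool mean exceeded that of the median probe set, an intensity of 121. Of the members, 80 probe sets for 53 genes passed, with 36, 2, 7, 19 and 16 probe sets in complexes I, II, III and IV and in ATP synthase. The 3 genes without a tested probe set were Ndufs1, an iron-sulfur core subunit of complex I (geometric mean 21.8), Cox8b, the heart and muscle form of a small complex IV subunit, and the pseudogene Cox6c-ps1.

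Over the 8 pools the complexes moved little. Where a gene had several tested probe sets, that with the highest mean stood for it, each gene was centred on its own mean, and the genes of a complex were averaged. Over the 53 genes together, the 0 h pool was the lowest at -0.17, the 18 h pool the highest at 0.11, and the other 6 pools lay between -0.05 and 0.07, a range of 1.21-fold. Complex I ran from -0.20 at 0 h to 0.16 at 18 h, complex IV from -0.21 at 0 h to 0.18 at 12 h, and ATP synthase from -0.15 at 0 h to 0.15 at 12 h. Complex III, with 4 genes, ranged from -0.14 at 24 h to 0.20 at 30 h. Complex II, with 2 genes, ran the other way in its first day, from 0.19 and 0.30 at 0 and 6 h to -0.21 at 12 h.

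**Figure D1:**
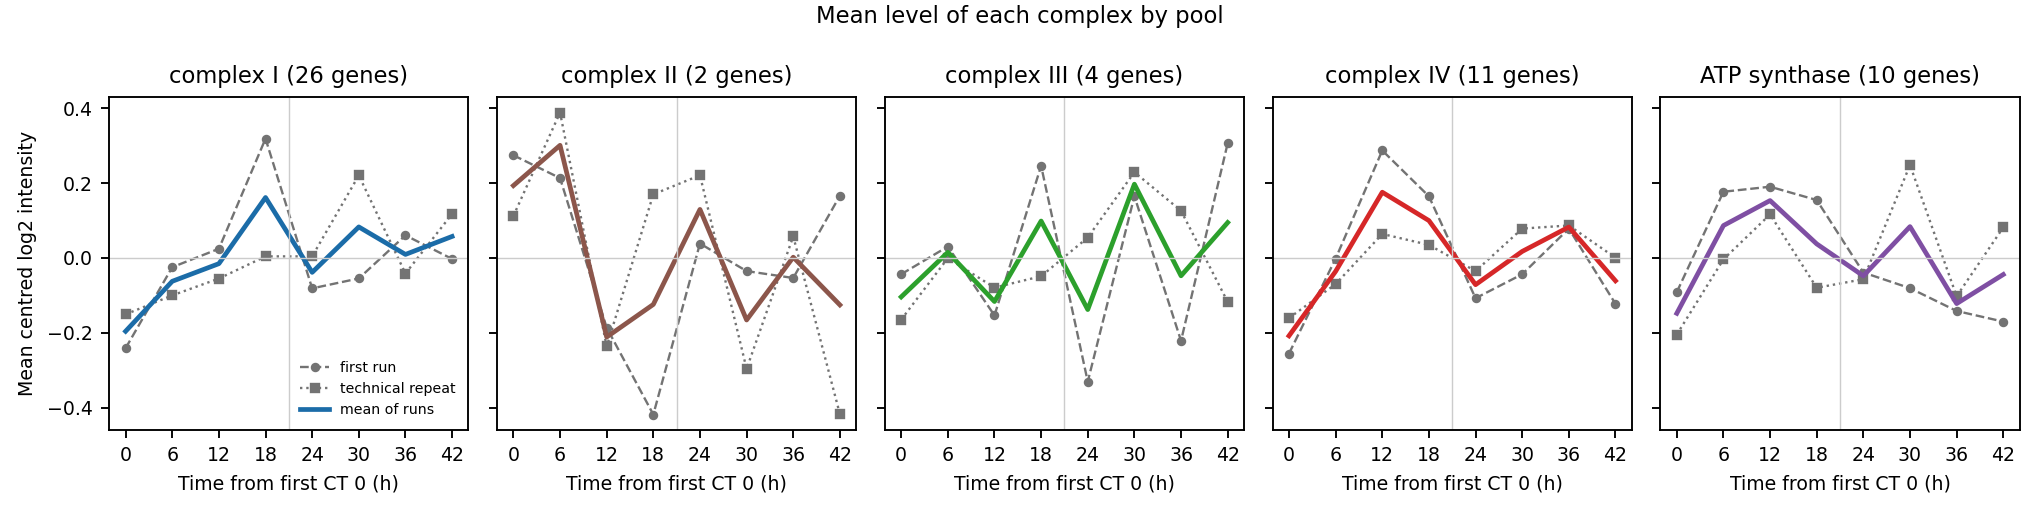
Mean centred log2 intensity of the genes of each complex (vertical axis) against hours from the first CT 0 (horizontal axis), for the first run (circles), the technical repeat (squares) and the mean of the runs (solid line); the grey vertical line parts the days. In complexes I and IV and ATP synthase the mean of the runs was lowest at 0 h (-0.20, -0.21 and -0.15), and in complex I the highest pool was 18 h in the first run (0.32) but 30 h in the technical repeat (0.22).

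The runs differed in where they placed single pools. For complex I the first run placed the 18 h pool at 0.32 and the technical repeat placed it at 0.0043. At 42 h the complex II genes were at 0.17 in the first run against -0.42 in the repeat. For the median member gene, the standard deviation (SD) over the 8 pools was 0.25 and the SD of 0.5 times the difference between the runs, a measure of the reading error left in their mean, was 0.19. Over all 2820 tested genes the same medians were 0.22 and 0.20. The 0 h pool was the lowest of the 8 for the 53 genes in either run (-0.18 and -0.15, the first run given first).

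The study's title names circadian profiling, and the first question was whether any member followed a 24 h rhythm. A cosine and a sine of 24 h were fitted in limma to the means of the 8 pools. None of the 80 probe sets was called at an adjusted p under 0.05, with a smallest adjusted p of 0.746, and 0% of all 4370 tested probe sets were. At an unadjusted p under 0.05 there were 6 members (7.5%), beside 6.36% of all tested probe sets. The median fitted amplitude, the distance from the mean to the peak on the log2 scale, was 0.16 over the 53 genes and 0.15 over all tested genes. By complex it was 0.16 in complex I, 0.20 in complex IV, 0.14 in ATP synthase and 0.081 in complex III. The fitted peak fell nearest to CT 12 in 24 of the 53 genes, nearest to CT 18 in 13, to CT 6 in 11 and to CT 0 in 5, while over all tested genes it fell nearest to CT 12 in 808, to CT 18 in 713, to CT 0 in 702 and to CT 6 in 597. The count of 6 moved with single pools: it was 2 without the 0 h pool, 3 without the 12 h pool and 9 without the 30 h or the 36 h pool. The share of all tested probe sets was not computed with a pool left out, so a move of the whole array cannot be told apart here.

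The end of the subjective day (CT 12, pools at 12 and 36 h) was then set against its start (CT 0, pools at 0 and 24 h). Complex IV genes stood highest at CT 12 in this comparison: 9 of the 11 had a higher level there, with a median difference of 0.29 on the log2 scale. The median of complex I was 0.12, with 18 of 26 genes higher, ATP synthase 0.091 with 8 of 10 higher, and complex III 0.043 with 3 of 4 higher. Both genes of complex II were lower. Over the 53 genes the median was 0.097 and 38 (71.7%) were higher, beside 0.018 and 52.3% over all tested genes. That shift rests in part on the 0 h pool: without it the median was 0.040 and 29 of the 53 were higher, and complex I was at 0.053 with 13 of 26 higher. With another pool left out the median of the 53 genes was up to 0.18, and with the arrays scaled to a common median it was 0.012 with 30 higher. No member was called, with a smallest adjusted p of 0.492, and 0% of all tested probe sets were. At an unadjusted p under 0.05 there were 7 members (8.75%), 6 higher and 1 lower at CT 12, beside 8.67% of all. The median half-width of the 95% interval of a member's difference was 0.52, so that differences of the size seen in most members could not be told from 0 with 8 pools. The 7 became 3 (3.75%) without the 0 h pool and 2 (2.5%) without the 12 h pool, beside 4.30% and 5.88% of all. Without the 3 arrays with much control signal they became 12 (15%), beside 7.64% of all.

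The median of complex IV was 0.28 in the first run against 0.25 in the repeat, and 8 of its 11 genes had the same sign in both runs. Between single pools, 10 of the 11 genes were higher at 12 h than at 0 h and 8 at 36 h than at 24 h, with the same sign on both days in 9. Its median fell to 0.16 without the 0 h pool and was 0.21 with the arrays scaled to a common median, a scaling that moved the median of all tested genes from 0.018 to -0.067. Relative to all tested genes complex IV was at 0.27, or 0.24 after quantile normalization, 0.20 without the 3 arrays with much control signal and 0.15 without the 0 h pool. Over the 53 genes the sign was the same in both runs in 64.2% and on both days in 60.4%, beside 59.7% and 61.3% of all tested genes. ATP synthase had 9 of 10 genes higher at 12 h than at 0 h but 4 of 10 at 36 h than at 24 h, and its median was -0.0046 without the 0 h pool and 0.31 without the 36 h pool.

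**Figure D2:**
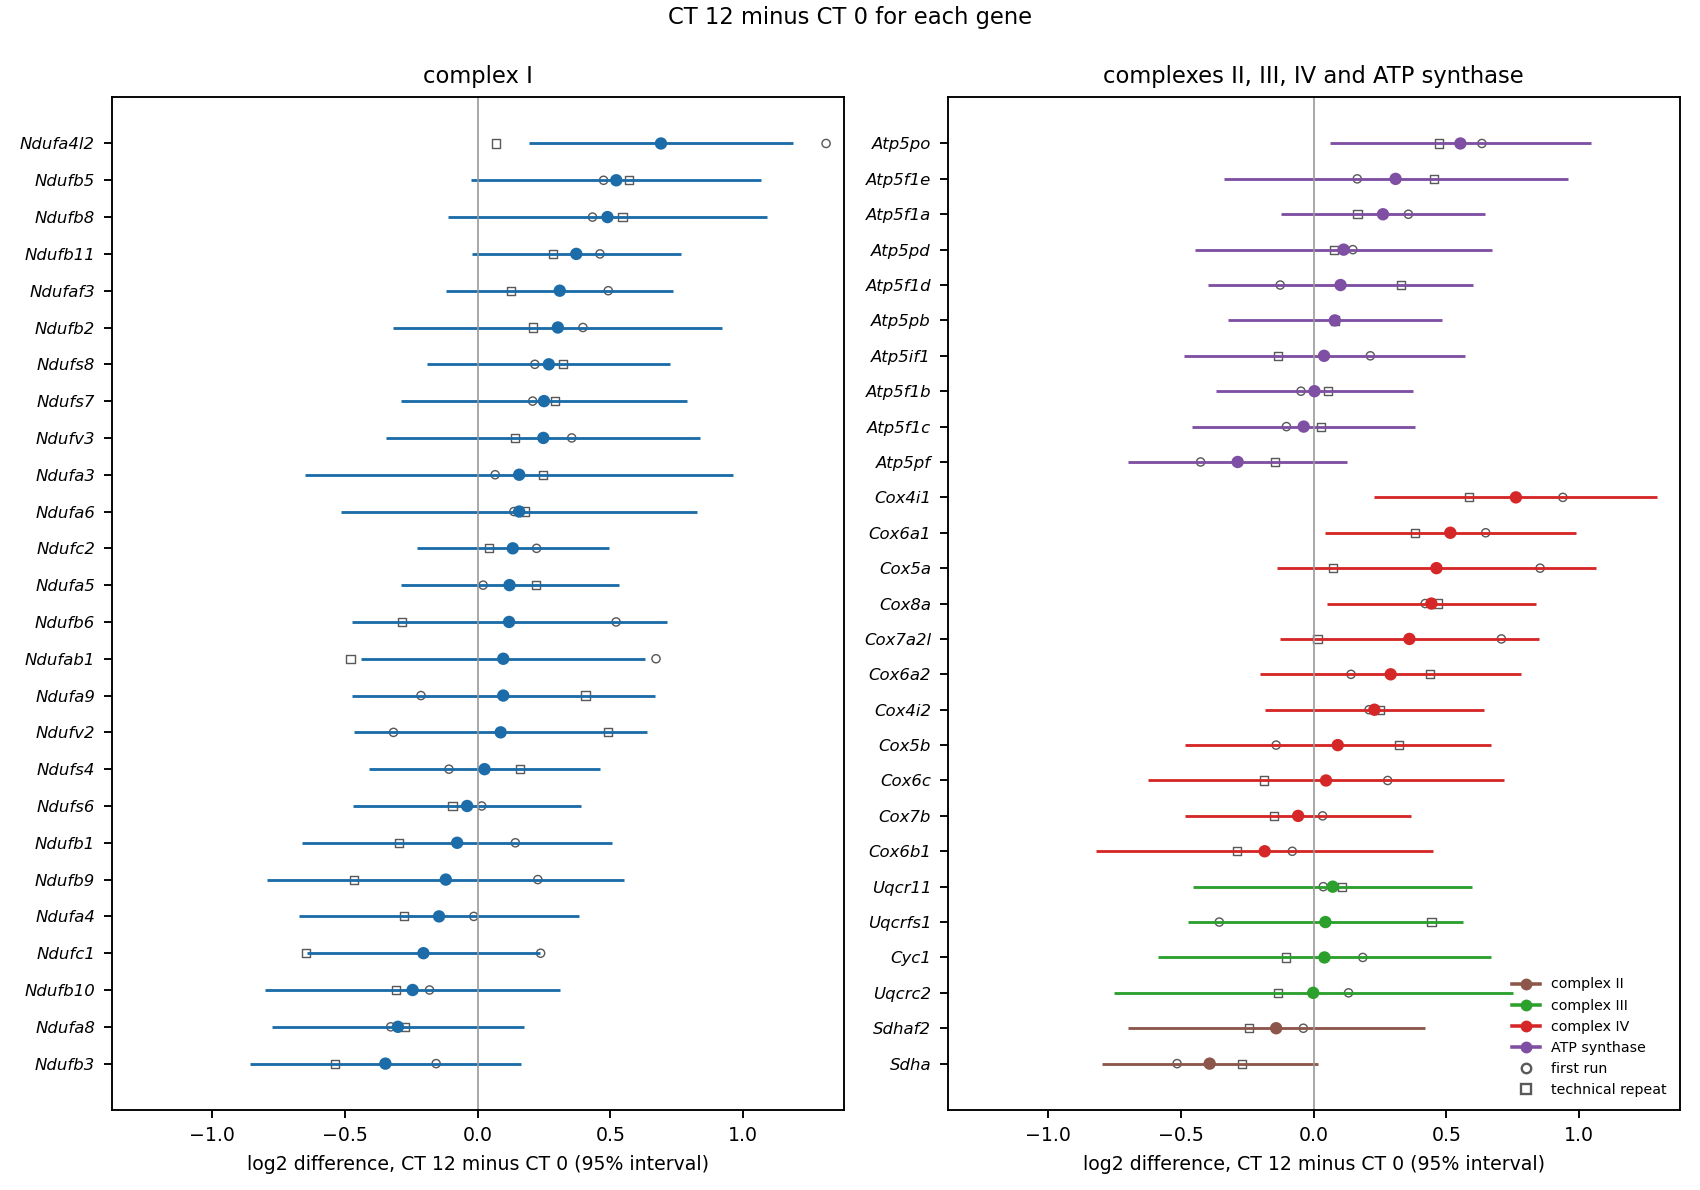
Difference between CT 12 and CT 0 on the log2 scale (horizontal axis) for each tested gene (vertical axis), complex I on the left and the other complexes on the right; filled points are the fit to the mean of the runs with its 95% interval, open circles the first run and open squares the technical repeat. In complex IV 9 of 11 points lie above 0, from -0.18 (Cox6b1) to 0.76 (Cox4i1), and the runs differ most for Ndufa4l2 (1.31 in the first run, 0.069 in the technical repeat).

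Cox4i1, the widespread form of subunit 4 of complex IV, had the largest difference between CT 12 and CT 0 of the 53 genes. In the order 0, 6, 12, 18, 24, 30, 36 and 42 h, which holds for every list of 8 pools here, its pools read 2209, 2907, 4606, 2953, 3374, 3626, 4650.2 and 3798. Both CT 12 pools were above the other 6, and the 0 h pool was the lowest. The difference was 0.76 ± 0.24 (SE, n = 8 pools), with 0.94 in the first run against 0.58 in the repeat. It had an unadjusted p of 0.00969 and an adjusted p of 0.514, and was not called. Without the 3 arrays with much control signal the difference was 0.52 with an unadjusted p of 0.0517. The other tested probe set of Cox4i1 gave 0.33 ± 0.19 (SE), also with both CT 12 pools above both CT 0 pools. Cox4i2, the oxygen-sensitive form of the same subunit, read 746, 740.3, 955, 945, 818, 957, 877 and 878 and differed by 0.23 ± 0.19 (SE).

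Cox6c, a small nuclear subunit of complex IV, had the smallest p of the members, but in 1 of its 2 tested probe sets. Its M27467 probe set read 129.9, 138, 221, 186, 140.5, 184, 227 and 158, with both CT 12 pools above both CT 0 pools. The difference was 0.73 ± 0.20 (SE), with an unadjusted p of 0.00371 and an adjusted p of 0.492. Most of it came from the first run (1.25), where the 12 and 36 h pools stood at 326 and 312 and the 0 and 24 h pools at 100.4 and 179. In the technical repeat the same pools stood at 149.9 and 166 and at 168 and 110.3, a difference of 0.21. Without the 3 arrays with much control signal the difference was 0.65. The other probe set, M27466, read 293, 378, 401, 325, 261, 353, 204 and 237 and differed by 0.047 ± 0.30 (SE).

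Cox8a, the common form of the smallest nuclear subunit, had 4 tested probe sets and all 4 were higher at CT 12, by 0.44, 0.17, 0.16 and 0.18 (those at 0.16 and 0.18 share a target). The first of these, the brightest member of complex IV, read 13419, 16067, 18815, 18338, 14477, 16350.1, 19087 and 14472, with 0.42 in the first run against 0.47 in the repeat (adjusted p = 0.559). Cox6a1, the widespread form of a regulatory subunit, read 5445, 6873, 9047, 8128, 5905, 8724, 7253 and 6750.2 and differed by 0.51 ± 0.21 (SE). Its second probe set differed by only 0.052. Cox6a2, the heart and muscle form, read 259, 338, 300.1, 312, 257, 221, 332 and 257 and differed by 0.29 ± 0.22 (SE). Cox5a read 109.7, 117, 163, 90.2, 140.0, 133, 179 and 144, with 0.85 in the first run against 0.072 in the repeat. The 2 complex IV genes with a lower level at CT 12 were Cox6b1, which joins the monomers of the dimeric enzyme (-0.18 ± 0.28, SE), and Cox7b (-0.058 ± 0.19, SE).

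In complex I the largest difference was that of Ndufa4l2, a gene known for its response to low oxygen. Its AA684929 probe set read 174, 241, 374, 301, 249, 260.5, 303 and 234 and differed by 0.69 ± 0.22 (SE, unadjusted p = 0.0114, adjusted p = 0.514). The first run rose from 91.4 at 0 h to 409 at 12 h, while the technical repeat read 332 and 342. The difference was 1.31 in the first run against 0.069 in the repeat. Both tested Ndufa4l2 probe sets carry the suffix of probes shared with a gene family, and the second differed by 0.0043. Ndufa4 itself read 3967, 4251, 4119, 4278, 3539.8, 3936, 2789 and 4615 and differed by -0.14 ± 0.24 (SE).

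Among the Ndufb genes, accessory subunits of the membrane arm of complex I, 5 of 9 were higher at CT 12 with a median of 0.12. Ndufb5 read 3114, 3271, 4335, 3259.7, 3986, 4222, 5905 and 3737 and differed by 0.52 ± 0.25 (SE), with 0.47 and 0.57 in the runs. Ndufb8 was higher in all 3 tested probe sets, by 0.49, 0.33 and 0.12, each with both CT 12 pools above both CT 0 pools. The probe sets at 0.49 and 0.33 share a target and are not independent readings. Ndufb3 was the lowest of the 26 complex I genes at -0.35 ± 0.23 (SE), with pools of 3142, 3397, 2456, 3140.3, 3664, 2499.6, 2899 and 4279. Of the 6 Ndufs and Ndufv genes, which sit in the arm that takes electrons from NADH, 5 were higher, with a median of 0.17 and a range from -0.039 (Ndufs6) to 0.27 (Ndufs8). Of the 8 Ndufa genes 6 were higher, with a median of 0.11.

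Sdha, the flavoprotein of complex II that oxidises succinate, read 2136, 1836, 1389, 1792, 2026, 1745, 1811 and 1716. Both CT 12 pools lay below both CT 0 pools, and the difference was -0.39 ± 0.18 (SE, unadjusted p = 0.0574, adjusted p = 0.569). Sdhaf2, which helps to load the flavin onto Sdha, differed by -0.14 ± 0.25 (SE). In complex III the 4 genes differed by between -0.0015 (Uqcrc2, a core subunit) and 0.072 (Uqcr11). Uqcr11, the smallest subunit and the brightest member of complex III, read 4485, 5259.9, 4661, 6836, 4263, 5453, 4534 and 5026, with the 18 h pool the highest. Cyc1, the cytochrome that hands electrons to cytochrome c, read 849.8, 920.0, 949, 1442, 1029.9, 1430.2, 975 and 1156 and differed by 0.041 ± 0.28 (SE).

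Atp5po, the stalk subunit that gives ATP synthase its sensitivity to oligomycin, had the largest difference between CT 12 and CT 0 in its complex. Its brighter probe set read 7181, 9988, 12942, 12192, 8659, 11853, 10334 and 10839 and differed by 0.55 ± 0.22 (SE, unadjusted p = 0.0308, adjusted p = 0.559). In both runs the 0 and 24 h pools were the lowest 2 of the 8. The second probe set of Atp5po went the other way, at -0.65 ± 0.37 (SE). Atp5f1b, the catalytic beta subunit in the F1 head, had the smallest SD over the pools of the 80 tested member probe sets, with pools of 12288, 12860.5, 12501, 12951, 12498, 12916, 12342 and 14167, a 1.15-fold range and a difference of 0.0033 ± 0.17 (SE). The alpha subunit Atp5f1a was at 0.26 ± 0.17 (SE), and 4 of the 5 F1 genes were higher at CT 12, with a median of 0.10.

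As a simpler count, both CT 12 pools lay above both CT 0 pools in 26 of the 80 member probe sets (32.5%) and below them in 15 (18.8%). Over all tested probe sets these shares were 23.2% and 21.6%. Complex IV genes had 10 of the 26 probe sets above, namely those of Cox4i2, Cox5a, Cox5b, Cox6a1, Cox6a2 and Cox6c, and a pair each of Cox4i1 and Cox8a. It also had 3 of the 15 below, both of Cox6b1 and 1 of Cox7a2l.

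**Figure D3:**
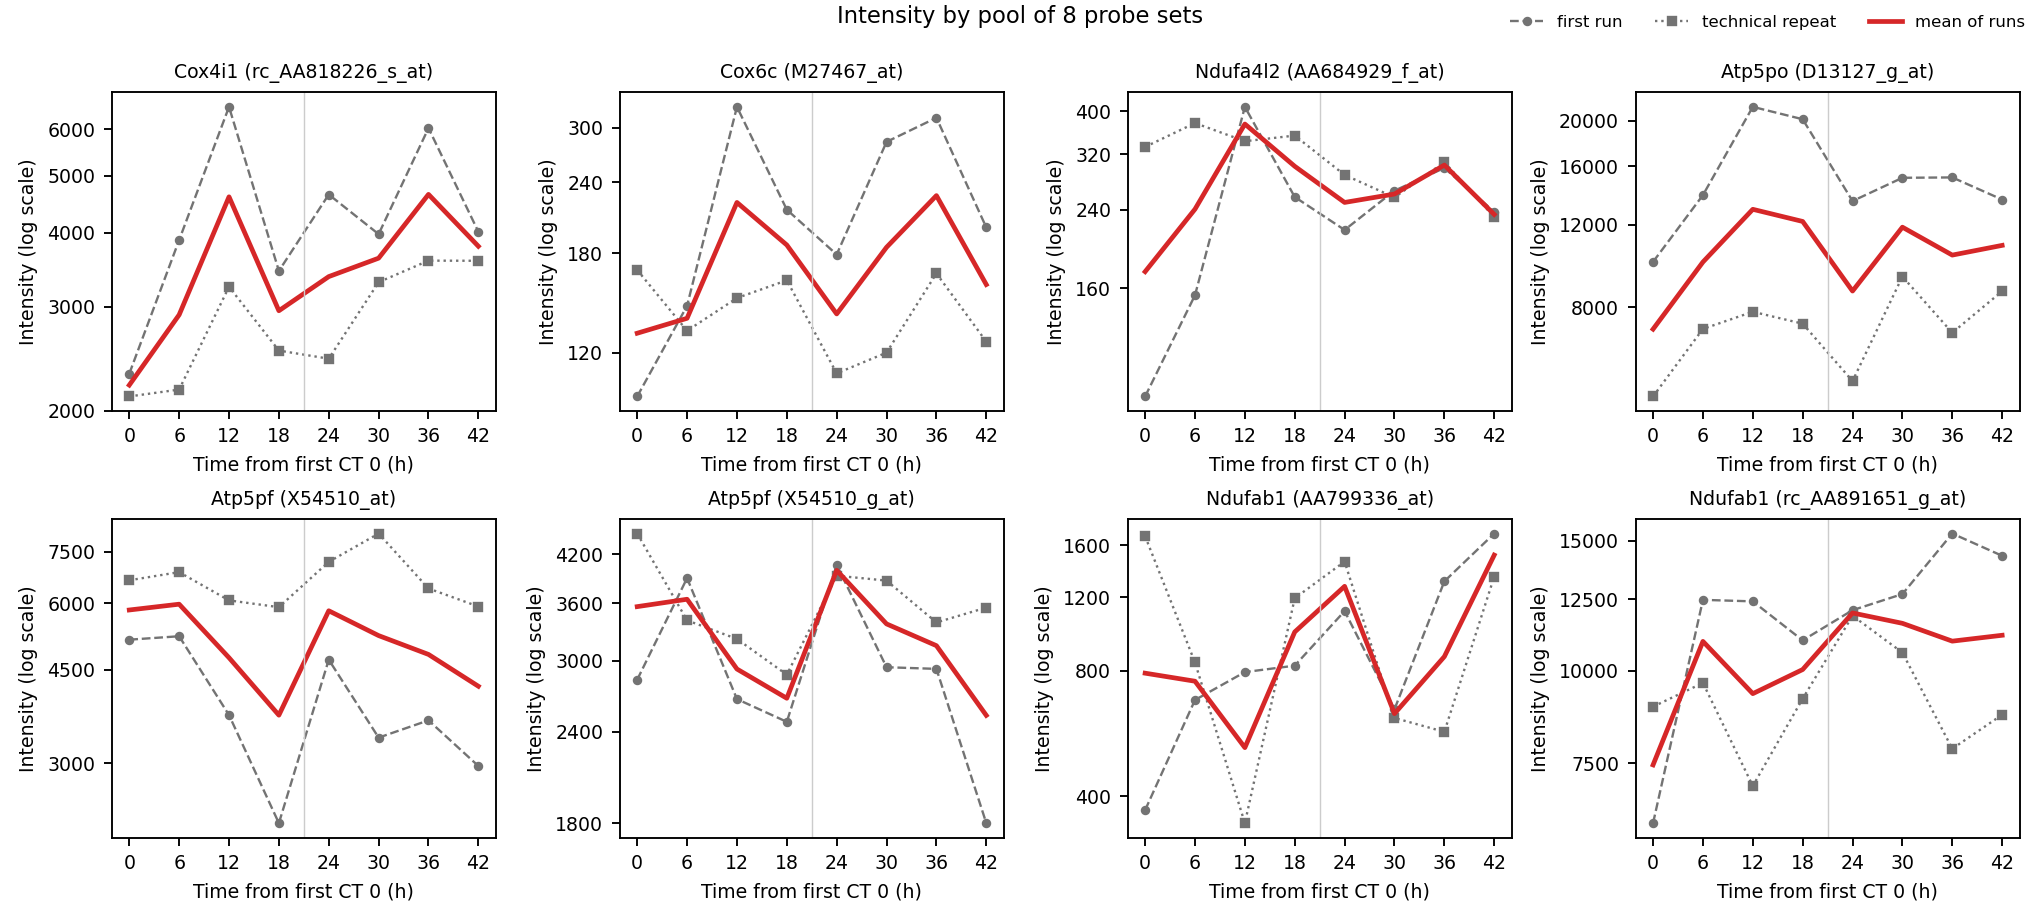
Intensity on a log axis (vertical) against hours from the first CT 0 (horizontal) for 8 probe sets, in the first run (circles, dashed), the technical repeat (squares, dotted) and their mean (solid line). Cox4i1 was highest at 12 and 36 h in the mean (4606 and 4650.2), both Atp5pf probe sets were lowest at 18 and 42 h, and the runs of the AA799336 probe set of Ndufab1 read 370.4 and 1682 at 0 h.

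The middle of the subjective day (CT 6, pools at 6 and 30 h) was set against the middle of the subjective night (CT 18, pools at 18 and 42 h). The members divided nearly evenly: 23 of the 53 genes were higher at CT 6, with a median of -0.041, beside 47.6% and -0.013 over all tested genes. The median of complex I was -0.12, with 10 of 26 genes higher, complex IV -0.019 with 4 of 11 higher, and ATP synthase -0.0055 with 5 of 10 higher. No member was called (smallest adjusted p = 0.968), against 1 probe set or 0.0229% of all tested. At an unadjusted p under 0.05 there were 3 members (3.75%), beside 4.26% of all. That count was 9 (11.25%) without the 30 h pool, beside 7.16% of all. It was 5 (6.25%) without the 36 h pool and 1 (1.25%) without the 42 h pool, beside 4.74% and 5.38% of all. Without the 18 h pool the median of the 53 genes was 0.045 and that of complex I was 0.035, and without the 3 arrays with much control signal they were 0.073 and 0.061. The median of the 53 genes was also above 0 without the 6 h pool (0.014), with arrays scaled to a common median (0.014), with all tested probe sets of a gene (0.0043) and in the technical repeat alone (0.033), so that its sign was not stable.

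Atp5pf, coupling factor 6 in the peripheral stalk of ATP synthase, supplied 2 of these 3 probe sets. The X54510_at probe set read 5828, 5977, 4739, 3695, 5809, 5216, 4807 and 4188 and the X54510_g_at probe set read 3559, 3643, 2925, 2668, 3989.9, 3371, 3148 and 2528. In both, the CT 6 pools lay above the CT 18 pools on each day, and the 18 and 42 h pools were the lowest 2 of the 8. The differences were 0.51 ± 0.19 and 0.43 ± 0.18 (SE), with unadjusted p = 0.021 and 0.0389 and an adjusted p of 0.968 for both. In the first run they were 0.67 and 0.68, and in the technical repeat 0.34 and 0.18. The probe sets share a target sequence and are not independent readings of the gene. Its fitted peak was at CT 4.03 in the first and CT 3.61 in the second. Of the 4 genes of the peripheral stalk 3 were higher at CT 6, with a median of 0.27, and Atp5pd stood next to Atp5pf at 0.48 ± 0.25 (SE), with pools of 2688, 3664, 3977, 2231, 2995, 3508, 2368 and 2970.2.

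Ndufab1, the mitochondrial acyl carrier protein, which is also a subunit of complex I, supplied the third. Its AA799336 probe set read 789, 755, 523, 991, 1275, 631, 865 and 1516, with both CT 18 pools above both CT 6 pools and a difference of -0.83 ± 0.32 (SE, unadjusted p = 0.0264, adjusted p = 0.968). The runs gave -0.84 and -0.82 for this difference. The brightest Ndufab1 probe set, rc_AA891651_g_at, read 7457, 10963, 9313, 10042, 11981, 11599.5, 10972 and 11175 and differed by 0.090 ± 0.24 (SE), and the third by 0.080. Ndufc1, a small accessory subunit, read 2003, 1769.8, 1705, 2352, 1682, 1579, 1491 and 2165 and differed by -0.43 ± 0.20 (SE, unadjusted p = 0.0523), with both CT 18 pools above both CT 6 pools.

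Both CT 6 pools lay above both CT 18 pools in 10 member probe sets and below them in 10 (12.5% each), beside 14.1% and 17.3% of all tested probe sets. The runs gave the same sign of this difference in 50.9% of the 53 genes and in 53.6% of all tested genes. The days gave the same sign in 45.3% and 47.0%.

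Between the days (4 pools from 24 to 42 h against 4 pools from 0 to 18 h) the members did not shift as a group. The median difference, second day minus first, was 0.019 over the 53 genes, 0.058 in complex I, -0.031 in complex IV and 0.0029 in ATP synthase, beside 0.0064 over all tested genes. In the first run it was -0.054 over the 53 genes and in the technical repeat 0.11. No member was called (smallest adjusted p = 0.997), nor were any of the tested probe sets (0%). At an unadjusted p under 0.05 there were 10 members (12.5%), 6 higher and 4 lower on the second day, beside 3.96% of all tested probe sets. This count fell to 2 without the 6 h pool and 4 without the 24 h pool, and to 5 each without the 0, 12, 18, 36 or 42 h pool. Those counts were 2.5% to 6.25% of members, beside 3.00% to 4.51% of all tested probe sets. Without the 30 h pool it was 11 (13.75%), beside 7.71% of all. It was 14 (17.7%) with arrays a alone and 6 (7.5%) with arrays b alone, beside 6.77% and 3.04% of all. All 4 pools of the second day lay above all 4 of the first in 1 member probe set (1.25%), the brightest of Ndufab1, and below them in 2 (2.5%), both of Atp5f1d, beside 0.915% and 0.961% of all tested probe sets.

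Cox7a2l, a factor that joins complexes III and IV into supercomplexes, had the smallest p of the day comparison. Its rc_AI172452 probe set read 226, 177, 155, 253, 284, 287, 214 and 289, and the second day was higher by 0.42 ± 0.15 (SE, unadjusted p = 0.0205, adjusted p = 0.997), with 0.27 and 0.57 in the runs. The brighter Cox7a2l probe set gave 0.28 ± 0.14 (SE). Ndufab1 was higher on the second day in all 3 probe sets, by 0.44, 0.29 and 0.16 (those at 0.29 and 0.16 share a target). Ndufa6, an accessory subunit of complex I, was higher in both, by 0.36 and 0.29. Its rc_AI229924 probe set, at 0.36, read 186, 203, 173, 155, 198, 230, 268 and 224. The day difference of this probe set was 0.87 in the first run against -0.15 in the repeat, and 0.094 without the 3 arrays with much control signal.

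Cox6b1 was lower on the second day in both of its probe sets. The brighter read 6736, 6780.3, 5904, 10378, 6024, 4965, 5324 and 5606, where the 18 h pool stood apart at 14191 in the first run against 7589.9 in the repeat. Its difference was -0.41 ± 0.16 (SE, unadjusted p = 0.032, adjusted p = 0.997), and -0.25 without the 18 h pool. The dimmer read 353, 292, 160.0, 337, 229.5, 150.0, 180.1 and 231 and differed by -0.49 ± 0.19 (SE), with -1.14 in the first run against 0.16 in the repeat. The delta subunit of the F1 head, Atp5f1d, was lower by -0.33 and -0.30 in probe sets that share a target, the first with pools of 947, 873, 913, 1197, 739, 788, 717 and 863.

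The one comparison in which members passed the threshold was that between the runs, which read the same RNA pools. Of the 80 member probe sets, 34 (42.5%) differed between technical repeat and first run at an adjusted p under 0.05: 9 were higher and 25 lower in the technical repeat. Of all tested probe sets 20.9% were higher and 27.5% lower. The median over the 53 genes was -0.12, beside -0.071 over all tested genes, and by complex it was -0.13 in complex I, -0.23 in complex III, -0.17 in complex IV and -0.18 in ATP synthase. The sign of such a shift depends on the scaling. With arrays scaled to a common median, the median of all tested genes moved to 0.22 and that of the members to 0.17, and the calls became 27 higher and 13 lower among the members and 1672 and 595 among all. The median of the members minus that of all tested genes was -0.052, and it was -0.13 after quantile normalization, -0.10 with the level filter at the 75th percentile and -0.00011 with no filter.

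Cyc1 had the largest of these differences. It read 1274, 1391, 1447, 2489.7, 1387, 2341, 1579 and 2378 in the first run against 567, 608, 623, 836, 765, 874, 603 and 562 in the repeat, lower in all 8 pools, by -1.36 ± 0.14 (SE, n = 8 pools, limma adjusted p = 3.50e-05). Cox8a fell in its L48209 probe set by -1.16 ± 0.21 (SE, adjusted p = 9.35e-04). It read 2175, 3572, 2016, 1567, 1486, 1391, 1128 and 1428 in the first run against 603, 759, 823, 678, 615, 850.1, 1020.3 and 962 in the repeat, lower in all 8 pools, and the runs were closest at 36 h. The dim Cox6b1 probe set was lower by -1.08 ± 0.25 (SE, adjusted p = 0.00466), a call that was lost with arrays a alone (-0.74, adjusted p = 0.127). Ndufs7, an iron-sulfur subunit of complex I, was lower by -1.03 ± 0.15 (SE) and Atp5po in its brighter probe set by -1.07 ± 0.13 (SE). With arrays scaled to a common median Cyc1 was at -1.07 and the Cox8a probe set at -0.87.

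In the other direction, Atp5pf in its X54510_at probe set read 5124, 5202, 3696, 2314, 4699, 3352, 3612 and 2964 in the first run against 6629, 6868, 6076, 5900.0, 7180.5, 8118, 6397 and 5917 in the repeat. This probe set was higher in all 8 pools, by 0.82 ± 0.14 (SE, adjusted p = 5.92e-04). The X54510_g_at probe set, which shares its target, was higher in 6 of 8 pools, by 0.31 ± 0.14 (SE, limma adjusted p = 0.0827), and was not called. Cox7b, a small subunit of complex IV, read 678, 681, 695, 543, 551, 488, 563 and 848 in the first run against 1132, 922, 1128, 875, 1368, 1287, 1114 and 966 in the repeat. It was higher in all 8 pools by 0.81 ± 0.15 (SE, adjusted p = 9.83e-04). Ndufs4, the subunit whose loss causes a mitochondrial encephalopathy, in its rc_AI013297_at probe set read 638, 643, 342, 739, 449, 423, 418 and 336 in the first run against 972, 581, 949, 766, 1113, 832, 962 and 548 in the repeat. This probe set was higher in all pools but that at 6 h, by 0.77 ± 0.19 (SE, adjusted p = 0.00526). The brightest Ndufs4 probe set, rc_AI013297_g_at, read 1766, 2488, 1779, 2518, 2111, 2502, 1806 and 1857 in the first run. In the repeat it read 2384, 2209, 2918, 2082, 2828, 2984, 2886 and 1632, lower at 6, 18 and 42 h. Uqcrfs1, the Rieske iron-sulfur protein of complex III, was higher by 0.61 ± 0.17 (SE) while Uqcr11 of the same complex was lower by -0.69 ± 0.17 (SE). Subunits of one complex thus shifted in both directions between readings of the same RNA.

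**Figure D4:**
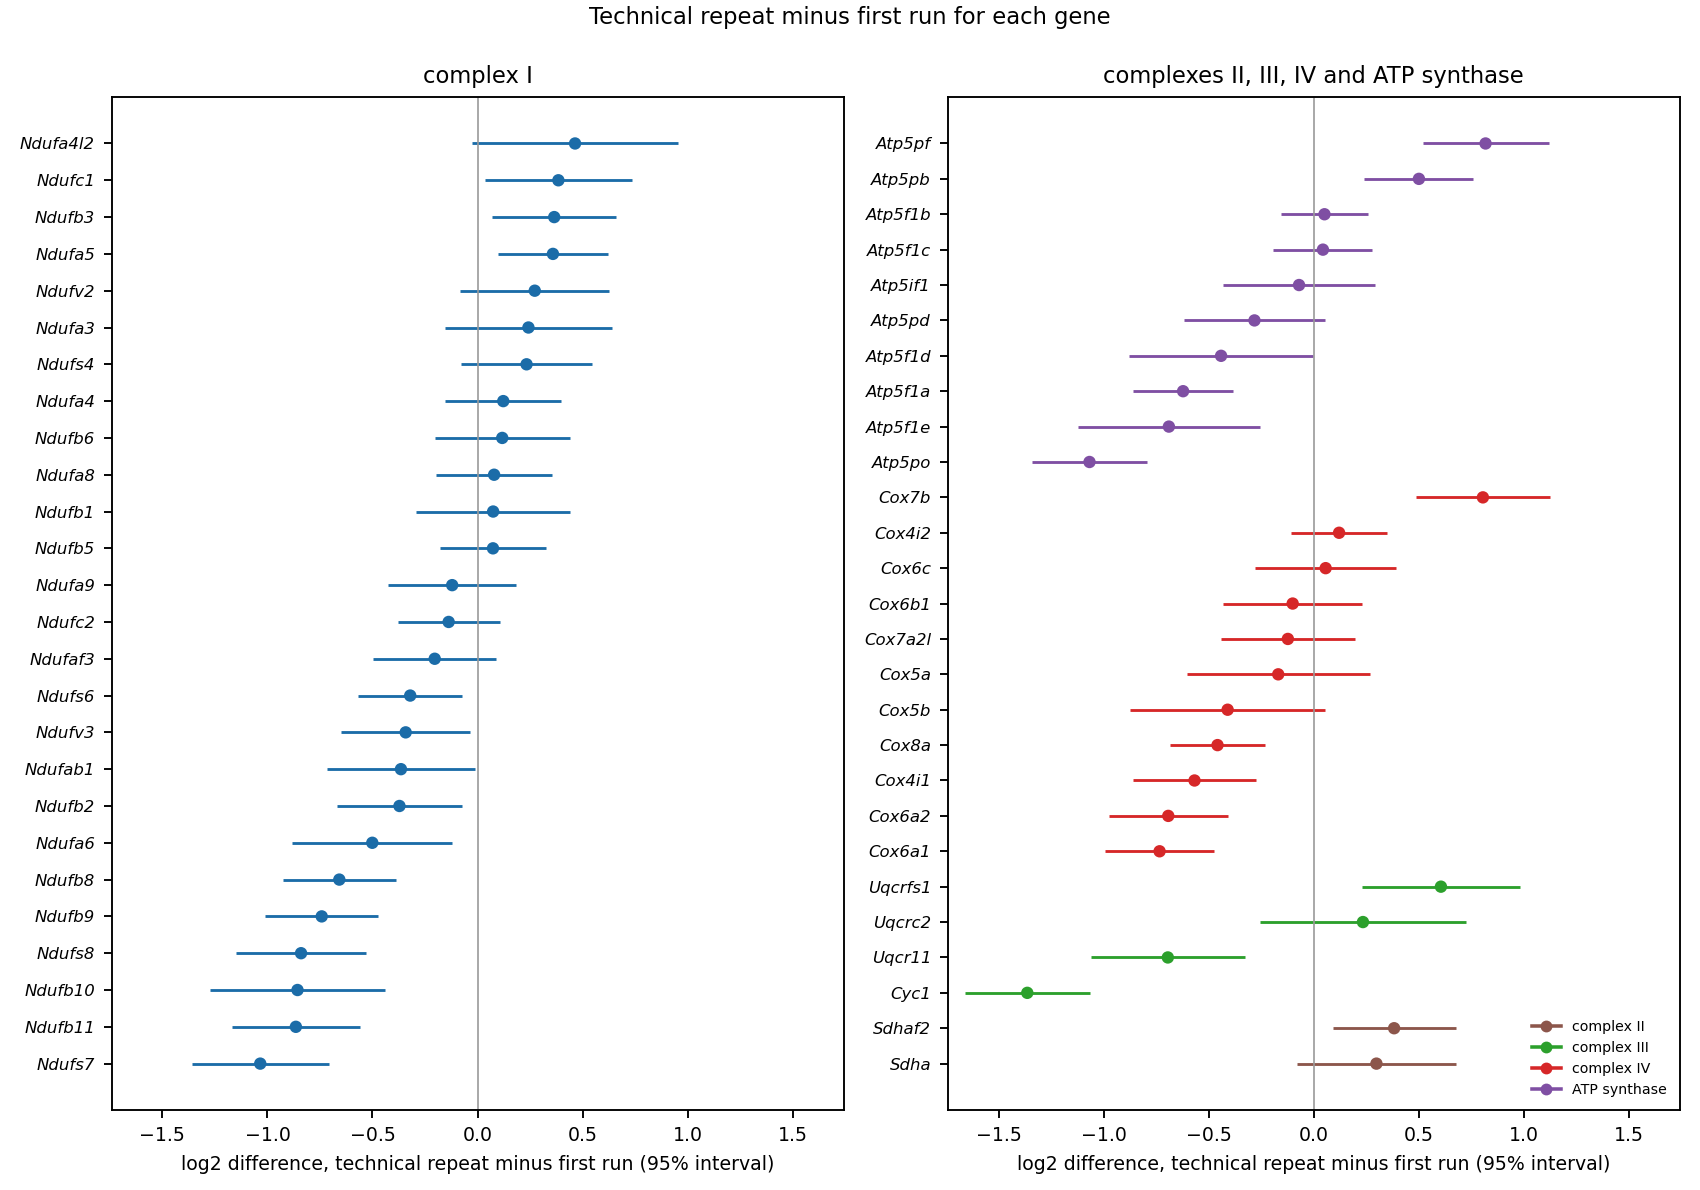
Difference between technical repeat and first run on the log2 scale (horizontal axis, mean of 8 pools with its 95% interval) for each tested gene (vertical axis), complex I on the left and the other complexes on the right. The genes run from -1.36 (Cyc1) to 0.82 (Atp5pf), with members on both sides of 0 in complexes I, III and IV and in ATP synthase.

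Whether the fitted 24 h curve differed between the runs was tested on the paired differences. No member was called, nor were any of the 4370 tested probe sets (0%), and 3 members (3.75%) had an unadjusted p under 0.05, beside 3.11% of all. Ndufab1 had the smallest. Its AA799336 probe set read 370.4, 681, 794, 823, 1112, 646, 1311 and 1707 in the first run against 1682, 837, 345, 1194, 1462, 616, 571 and 1346 in the repeat. Technical repeat minus first run was 2.18 at 0 h and -1.20 at 12 h. CT 12 minus CT 0 was 0.67 in the first run against -1.82 in the repeat (unadjusted p = 0.00371, adjusted p = 0.999). The same difference was 0.67 and -0.48 for the brightest Ndufab1 probe set, and -1.11 and 0.15 for the dimmer of Cox7a2l. The count of 3 was 1 without the 0 h or the 36 h pool, 9 without the 24 h pool, 7 without the 42 h pool and 5 without the 18 h pool. The share of all tested probe sets was not computed for these counts.

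Arrays a and b of the first run gave a further measure of reading error. The median absolute difference between them was 0.43 at 24 h and 0.52 at 36 h over the 53 genes, beside 0.41 and 0.49 over all tested genes. Array b was higher for the median member by 0.19 at 24 h and by 0.14 at 36 h.

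For 28 genes the array held more than 1 member probe set, and for 21 more than 1 was tested. In 13 of the 21 all tested probe sets had the same sign of CT 12 minus CT 0, in 9 the same sign of CT 6 minus CT 18 and in 12 the same sign between the days. Counted as pairs, 24 of 34 (70.6%) had the same sign of CT 12 minus CT 0, beside 57.6% of such pairs over all tested probe sets. For CT 6 minus CT 18 it was 16 of 34 (47.1%), beside 63.2%. Some of these pairs share a target and are not independent readings. Cox8a, Ndufb8, Cox4i1, Atp5pf and Cox6b1 were among the 13. Atp5po, Ndufab1, Cox7a2l, Ndufaf3, Ndufs4, Ndufb6, Uqcrfs1 and Atp5f1d were the 8 whose probe sets disagreed. Ndufaf3 stood at 0.31 and -0.44, and Cox7a2l at 0.36 and -0.48.

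Other mitochondrial genes gave a comparison. Of 18 listed genes of carriers and ATP handling 10 were tested, and CT 12 minus CT 0 had a median of 0.079 with 7 higher. Slc25a4 and Slc25a5, the ADP/ATP carriers that export the product of ATP synthase, were at 0.13 and 0.073. Of the tricarboxylic acid cycle and pyruvate dehydrogenase 10 of 20 were tested, with a median of 0.063 and 6 higher, and Suclg1, a subunit of succinyl-CoA ligase, stood highest at 0.45. Of other routes of electron entry 5 of 16 were tested (median -0.018, 2 higher), with Gpd2, the glycerol phosphate dehydrogenase of the inner membrane, at 0.59. Of assembly, import and protease genes 8 of 36 were tested (median 0.030, 4 higher), with the co-chaperonin Hspe1 at 0.48 and the chaperone Hspa9 at -0.83. Of 17 listed regulators only Nfe2l2 was tested, at -0.30. In these 5 lists 0 genes were called for rhythm, phase or day.

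Markers of the cell types in and around the SCN were also read. CT 12 minus CT 0 had a median of -0.22 over the 9 tested pan-neuronal markers (2 higher) and of -0.31 over the 7 tested oligodendrocyte and myelin markers (3 higher). It was -0.0032 over 8 astrocyte markers (3 higher), 0.058 over 5 microglial and macrophage markers, 0.19 over 3 endothelial and pericyte markers, -0.038 over 4 markers of choroid plexus and ependyma, 0.11 over 5 SCN peptides and 0.092 over 5 markers of striated muscle. The mean of the pan-neuronal list ran from -0.22 at 12 h to 0.13 at 0 h, and that of the myelin list from -0.17 at 36 h to 0.13 at 30 h. The part of cell composition in the member values was not tested. In the CT 6 comparison Ttr, a marker of choroid plexus, stood at 2.04 (limma unadjusted p = 2.22e-04). It was not the 1 probe set called over the whole array.

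Promoters were looked at for every member gene that could be matched, tested or not. RefSeq promoters (build GRCr8, 250 bases before to 50 after the start) were matched by symbol for 47 of the 56 genes, out of 27457 promoters. Counting both strands, the ETS motif CCGGAAG, bound by the GABP factor known as a regulator of respiratory genes, was present in 10 of the 47 (21.3%) and in 9.22% of all promoters. The NRF1 motif GCGCATGC was in 2 (4.26%) and in 2.66% of all, and the cyclic AMP response element TGACGTCA in 2 (4.26%) and in 1.91%. Of the clock motifs, the E-box CACGTG was in 2 (Atp5pb and Ndufb3, 4.26%) and in 6.65% of all, and the D-box TTATGTAA in 0 and in 0.881%. The median GC content of the windows was 56% in the members and 52.3% in all. Cox4i1 was among the 10 genes with the ETS motif in the window. The 100 bases before the start are printed for 4 genes described here that hold a match there, with matches in capitals.
Atp5pf (chr11:37375102-37375201, minus strand, ETS match): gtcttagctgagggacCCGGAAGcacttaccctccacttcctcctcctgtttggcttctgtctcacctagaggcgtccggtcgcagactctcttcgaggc
Atp5po (chr11:44657484-44657583, minus strand, overlapping NRF1 matches): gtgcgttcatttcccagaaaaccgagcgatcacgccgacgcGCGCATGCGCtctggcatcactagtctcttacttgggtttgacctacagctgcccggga
Cox8a (chr1:213833624-213833723, minus strand, cyclic AMP response element and a pair of ETS matches): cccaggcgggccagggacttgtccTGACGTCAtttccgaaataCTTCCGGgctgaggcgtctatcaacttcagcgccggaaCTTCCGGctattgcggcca
Ndufb3 (chr9:67623317-67623416, plus strand, E-box match): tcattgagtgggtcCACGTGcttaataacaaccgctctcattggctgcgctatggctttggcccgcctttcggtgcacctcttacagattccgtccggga
The match lies 84 bases before the start in Atp5pf, whose probe sets were highest at 0, 6 and 24 h. In Cox8a, higher at CT 12 in 4 of 4 probe sets, the cyclic AMP response element lies 76 bases and the ETS matches 57 and 19 bases before the start. In Atp5po, whose probe sets disagreed, the NRF1 matches begin 59 and 57 bases before it. The E-box of Ndufb3, the complex I gene with the lowest CT 12 minus CT 0, lies 86 bases before its start. Atp5pb, the other member with an E-box in its window, had a CT 12 minus CT 0 of 0.080 ± 0.18 (SE). A match of letters is a description and not a bound site.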

How the data were processed

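The deposited values are probe set intensities on a linear scale. How the authors summarised and scaled the probes is not given in the sources used here. They were already scaled per array: the mean after trimming 2% at each end was 500.7 to 500.8 on the 18 arrays. Intensities under the 10th percentile (12.1) were set to it and log2 was taken. Arrays a and b were averaged, then the runs. The 59 control probe sets were left out. Genes came from the platform annotation, and 102 of 102 member symbols matched RefSeq.

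A 24 h cosine and sine were fitted with limma 3.58.1 (R 4.3.3) to the means of the 8 pools (5 residual and 5.13 prior degrees of freedom). The tests were the moderated F of both terms, CT 6 minus CT 18 and CT 12 minus CT 0 from the same fit, a day term, and the paired difference of the runs. P-values were Benjamini-Hochberg adjusted over 4370 probe sets, with a threshold of 0.05. For rhythm, phase and day they measure the spread between pools, part of which is array error, and the 8 pools limit the precision. For the run tests they measure the spread of the paired run differences. Pools of a phase come from different rats, and the runs are technical readings of the same pools. The fits were tested on simulated data with rhythms and shifts larger than those of most members. That test does not show whether changes of the members' size would be found.

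Values in every pool are given for the 4 members of smallest p in each pool comparison, the 3 largest rises and falls between runs, the 3 smallest p of run by phase, and the brightest member of each complex. The rule also held any member called; of the 34 called between the runs, those outside these groups are given as counts. Others, including the genes beside them in a complex, were named after their values were seen. The members and lists were chosen with earlier results of these data known. Alternatives were quantile or median scaling, other level filters and floors, each run by itself, arrays a or b alone, the trend and robust options of limma, all probe sets of a gene, the run as a block, and each pool left out. One was added after seeing the data: leaving out the 3 arrays with over 1% control signal, where the technical repeat, shifted by the mean run difference of the probe set, stood in at 12 and 18 h.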

Additional observations from a re-analysis of the deposited data

Results flagged for a closer look

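Sdha, the flavoprotein of complex II, was higher in the technical repeat in 7 of 8 pools, from 0.16 upwards, and lower at 42 h, where the difference was -0.80. This 1 pool stood apart from the other 7 by Dixon's criterion, which chance meets in about 1 in 20 groups, and 27 such groups of 8 values were looked at.

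In a pair of complexes the mean over genes gave a phase difference of opposite signs on the 2 days. These differences between the days were not tested. CT 6 minus CT 18 in complex IV was -0.14 on the first day and 0.078 on the second. CT 12 minus CT 0 in ATP synthase was 0.30 on the first day and -0.074 on the second.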

How the results depend on the processing

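All 122 recomputed counts of called members stayed within 1.5 times the main count. For rhythm, phase, day and run by phase the main count was 0. There the result says only that 0 members were called in any setting. Between the runs 28 to 40 were called. With the run as a replicate block and the pool as a random block, 0 members were called, and 7, 2, 9 and 8 had an unadjusted p under 0.05 for rhythm, CT 6 minus CT 18, CT 12 minus CT 0 and day. For CT 6 minus CT 18, CT 12 minus CT 0 and day, the shares of all tested probe sets were 4.74%, 9.34% and 4.28%. Of the named probe sets, 344 of 346 rhythm, phase and day values kept their side of the threshold and, where they have a direction, their direction. So did 100 of 101 run values. None of the rhythm, phase and day values was called in the main fit, so keeping their side of the threshold says little about their size. Sizes varied between settings. CT 12 minus CT 0 was 0.069 to 1.31 for Ndufa4l2 (AA684929) and 0.21 to 1.25 for Cox6c (M27467). The day difference of the dimmer Cox6b1 probe set was -1.14 to 0.16. In the technical repeat alone the day differences of Cox6b1 (0.16) and Ndufa6 (-0.15) reversed, neither being called in any setting, and with arrays a alone Cox6b1 lost its call between the runs (-0.74).

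Of 486 recomputed complex medians 31 moved by more than their replicate spread. Scaling to a common median gave 0.21 for complex IV and 0.012 for all 53 genes in CT 12 minus CT 0. It gave 0.17, 0.065, 0.13, 0.12 and 0.17 for complexes I, III and IV, ATP synthase and all genes between the runs. The first run alone gave -0.26 for complex I and -0.15 for complex III in CT 6 minus CT 18, and -0.12 for ATP synthase between days. The technical repeat alone gave 0.17 for complex III in CT 6 minus CT 18, and 0.062 for complex IV and 0.11 for all genes between days. For complex IV between the runs, arrays b alone gave -0.36 and all probe sets of a gene -0.41. Without the 3 arrays with much control signal, CT 6 minus CT 18 was 0.061 in complex I, 0.019 in complex II, 0.14 in ATP synthase and 0.073 over all genes, and CT 12 minus CT 0 was 0.19 in complex III.

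With 1 pool left out, CT 12 minus CT 0 ranged from 0.040 to 0.18 over all genes, from 0.053 to 0.20 in complex I, from 0.16 to 0.33 in complex IV, from -0.072 to 0.19 in complex III and from -0.0046 to 0.31 in ATP synthase. CT 6 minus CT 18 ranged from -0.23 to 0.035 in complex I, from 0.029 to 0.40 in complex II, from -0.11 to 0.049 in complex IV, from -0.032 to 0.11 in ATP synthase and from -0.11 to 0.045 over all genes. In complex IV the day difference ranged from -0.085 to 0.080 and the run difference from -0.34 to -0.085. The cause of these moves was not tested.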
